A study of Mus musculus with 6 samples.

Results

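Interferon response genes were followed through the transcriptomes of a mouse breast cancer line kept under hydrogen peroxide. The set held 35 genes given by symbol: 3 interferon receptor chains, 7 transcription factors of the STAT and IRF families, and 25 genes that interferons induce or that act in the antiviral state. All 35 were found among the 24454 genes of the expression table. MTflEcad is an epithelial line derived from a breast tumour of the MMTV-Neu strain, whose mammary tumour virus promoter drives the Neu oncogene in mammary epithelium. The groups were PBS, I80 and DI150. I80 received 80 µM H2O2 daily over 7 months, and DI150 received 150 µM in the same way. PBS was the control at 0 µM H2O2, recorded with the same 7 months. The MMTV-Neu background is common to all 3 groups. The labels do not explain the letters flEcad in the line's name, describe no other allele and leave unsaid whether a line was a clone or a pool. With a single line per dose, the effects of dose and of line cannot be told apart. Each group had 2 RNA libraries, labelled as biological duplicates without a statement on whether separate long-term cultures gave them. The comparisons ask which of these transcripts differed in each treated line, and between the treated lines.

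Interferons are secreted proteins by which infected or damaged cells warn their neighbours. Type I interferons bind a receptor of the chains IFNAR1 and IFNAR2, and interferon gamma binds a receptor of IFNGR1 and IFNGR2. The JAK kinases on these receptors phosphorylate STAT proteins. STAT2 and IRF9 belong to the complex that binds the interferon-stimulated response element (ISRE), and STAT dimers bind the gamma-activated site (GAS). Cytosolic RNA and DNA sensors act upstream and switch on interferon genes through IRF3 and IRF7. In epithelial tumour cells the same genes are known as part of the response to viral RNA, to DNA in the cytosol and to interferon released by immune cells.

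Libraries held 21017849 to 26608715 reads assigned to genes, and 13905 to 15015 genes had at least 1 read. Values are counts per 1000000 reads (CPM), in which 1 read was worth 0.0376 to 0.0476 CPM. A gene was tested where its CPM averaged 1 or more across all 6 libraries, and was called at a limma adjusted p under 0.05. Epithelial markers Epcam, Krt8, Krt18 and Cdh1 were present in every library, with a summed level of 5974 and 5922 CPM in PBS, 2750 and 2744 CPM in I80, and 3098 and 2796 CPM in DI150. The 4 did not move together: Krt8, Krt18 and Cdh1 were called lower in both treated lines, while Epcam, at 583 and 629 CPM in PBS, 716 and 648 CPM in I80 and 1109 and 1002 CPM in DI150, was 1.74-fold higher in DI150 than in PBS (limma adjusted p = 0.000115). The 8 leukocyte markers, of which 2 passed the filter, summed to 9.81 and 17.2 CPM in PBS, 2.07 and 2.19 CPM in I80, and 1.90 and 1.98 CPM in DI150. Within that list the macrophage receptor gene Csf1r was at 0 reads in both treated lines and made up 7.67 and 14.5 CPM of the PBS sums, while Adgre1 and Cd3e had no read in any library. Cd68, the other tested marker, averaged 2.13, 1.89 and 1.63 CPM in PBS, I80 and DI150. It was not called against PBS (limma adjusted p = 0.557 in I80 and 0.193 in DI150). Itgam had no read in PBS or I80, and 5 and 3 reads in DI150. Ptprc had 7 and 6 reads in PBS, 2 and 2 reads in I80, and 3 and 0 reads in DI150. Lyz2 and Cd79a had at most 5 reads in a library. The 3 dendritic cell markers reached at most 0.0404 CPM. The 7 fibroblast markers, of which 3 passed the filter, summed to 21.8 and 23.7 CPM in PBS, 23.4 and 24.0 CPM in I80, and 22.84 and 21.98 CPM in DI150. Their members moved in opposite directions: Col1a2 had 15.3 and 15.3 CPM in PBS and no read in the treated lines, Col1a1 was 1.77-fold higher in DI150 and 4.22-fold higher in I80 than in PBS, and Pdgfra was 3.54-fold and 2.81-fold higher, all called. The part of these markers in the results below was not tested, and in bulk RNA fewer cells with a transcript and less of it per cell cannot be told apart.

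Promoter sequences were taken from the RefSeq table for GRCm38.p6, which holds 250 bases before and 50 after an annotated transcript start and had an entry for 30 of the 35 genes. They were searched on both strands for the ISRE core, which is GAAA, any 2 bases and GAAA again (TTTC, any 2 bases and TTTC on the other strand), and for the GAS core TTCNNNGAA, which reads the same on both strands. The following stretches are shown because their genes carry the motif and moved in different ways, each with 40 bases before the match and up to 40 after it, but none beyond the transcript start. For Gbp3, Oas1a and Ifitm2 the annotated start used lies inside the gene's span, so it is not the gene's outermost start. All stretches are given on the gene's own strand, with matches in capitals.
Isg15, chr4:156200835-156200936, minus strand: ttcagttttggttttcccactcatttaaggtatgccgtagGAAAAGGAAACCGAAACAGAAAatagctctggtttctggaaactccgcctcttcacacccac
Gbp3, chr3:142559959-142560043, plus strand: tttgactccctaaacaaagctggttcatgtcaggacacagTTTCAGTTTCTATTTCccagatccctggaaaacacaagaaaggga
Gbp2, chr3:142620564-142620653, plus strand: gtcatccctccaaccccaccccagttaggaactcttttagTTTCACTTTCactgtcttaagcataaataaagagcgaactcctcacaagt
Oas1a, chr5:120907526-120907585, minus strand: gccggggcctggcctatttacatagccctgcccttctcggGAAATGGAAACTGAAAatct
Ifitm2, chr7:140955962-140956047, minus strand: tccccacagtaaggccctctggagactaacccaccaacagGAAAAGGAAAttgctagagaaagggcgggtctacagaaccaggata
Irf1, chr11:53769884-53769972, plus strand: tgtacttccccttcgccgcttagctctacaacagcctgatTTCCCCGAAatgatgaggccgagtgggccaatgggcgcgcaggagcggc
Isg15, which encodes a ubiquitin-like modifier, had 3 overlapping ISRE matches that begin 78, 72 and 66 bases before the start. Gbp3 and Oas1a had 2 overlapping matches each, beginning 45 and 39 bases and 20 and 14 bases before the start. Gbp2 and Ifitm2 had 1 ISRE match each, at 59 and 46 bases, and Irf1 had 1 GAS match at 90 bases.

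An ISRE match was present in 15 of the 30 genes with a promoter sequence (50%), against 3.99% of the 27025 genes in the table and 3.44% of its 32851 windows. A GAS match was present in 12 (40%), against 9.55% of genes and 8.30% of windows. In these windows 2 pairs of an ISRE and a GAS match overlapped. The direction of change was mixed among the genes with a match. Of the 12 tested genes with an ISRE match, 5 were called higher, 3 lower and 4 neither way in DI150 against PBS, and 3 were called higher, 3 lower and 6 neither way in I80 against PBS. Of the 14 tested genes without one, 4 were higher, 7 lower and 3 not called in DI150, and 3 were higher, 5 lower and 6 not called in I80. Of the 12 tested genes with a GAS match, 3 were higher, 6 lower and 3 not called in DI150. In I80 these were 3, 4 and 5. Of the 14 without a GAS match, 6 were higher, 4 lower and 4 not called in DI150. In I80 these were 3, 4 and 7. Over all tested genes, 68.7% were called in DI150 against PBS (32.7% higher, 36.1% lower). In I80 against PBS it was 66.4% (32.3% higher, 34.2% lower). A match describes letters in a window and shows no binding.

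Of the 35 genes, 28 passed the filter. Ifit1, Ifit3, Mx1, Mx2, Rsad2, Usp18 and Ifitm1 were below it and are given at the end. In DI150 against PBS, 9 were called higher and 11 lower, 71.4% of the 28, beside 68.7% of all 11428 tested genes (32.7% higher, 36.1% lower). In I80 against PBS, 6 were called higher and 10 lower, 57.1%, beside 66.4% of all tested genes (32.3% higher, 34.2% lower). In DI150 against I80, 4 were called higher and 6 lower, 35.7%, beside 43.8% of all tested genes (21.9% each way). The shares called were thus near those of all tested genes, and no direction prevailed. Median log2 fold changes of the 28 genes were -0.01 in DI150 against PBS, 0.01 in I80 against PBS and -0.15 in DI150 against I80, beside -0.03, -0.00 and 0 over all tested genes. Under quantile normalization, which moved the median of all genes by less than 0.1, 9 were higher and 9 lower in I80. Without PBS replicate 2, 10 were called higher in I80 and 12 in DI150, and without I80 replicate 1, 2 were higher and 3 lower in DI150 against I80.

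Called and at least 2-fold different in mean CPM were 11 of 28 in DI150 against PBS (23.0% of all tested genes), 7 in I80 against PBS (22.2%) and 3 in DI150 against I80 (8.04%). The libraries of the groups did not overlap for 23, 18 and 23 of the 28 genes in these comparisons, beside 83.5%, 83.7% and 78.5% of all tested genes. Both comparisons with PBS share its libraries, so their calls are set side by side and not counted as independent. Ifit2, Ifih1, Ifitm2, Ifnar2 and Irf3 were called higher in both treated lines. Trim25, Isg20, Irf1, Ifngr1, Oasl2, Gbp2, Bst2 and Parp14 were called lower in both. Called in DI150 but not in I80 were Stat2, Isg15, Gbp3 and Adar as higher and Ifi35, Oas1a and Ifnar1 as lower. Called in I80 but not in DI150 were Ifitm3 as higher and Irf2 and Ifi27 as lower. Stat3, Irf7, Irf9, Ddx58 and Eif2ak2 were called in neither. Whether DI150 and I80 themselves differed is given gene by gene below.

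**Figure D1:**
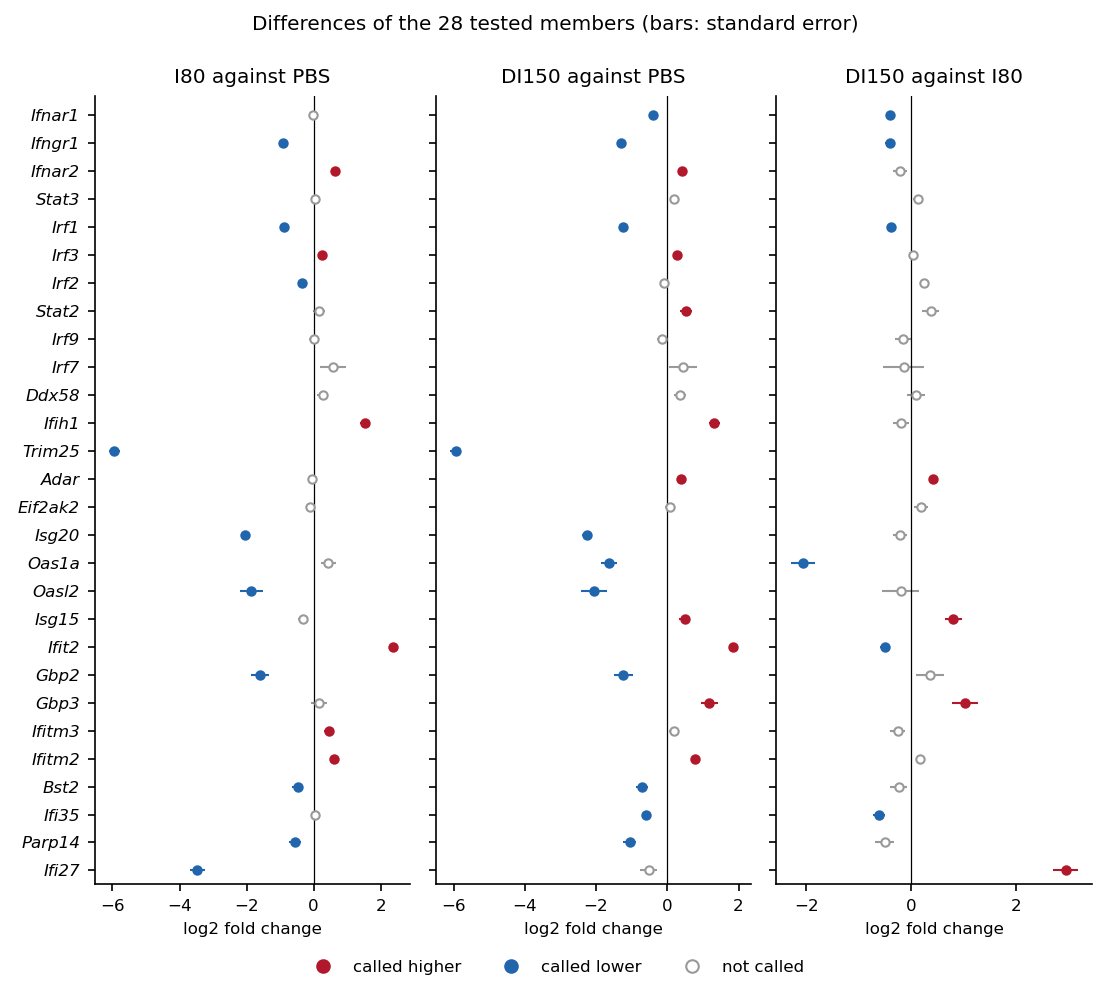
Log2 fold changes of the 28 tested genes on the log2(CPM + 0.5) scale (points) with their standard errors (bars) for each treated line against PBS and for the treated lines against each other, with called genes filled. Calls in both directions stand in each panel, Trim25 lies far to the left against PBS at a value that the pseudocount sets, and Ifi27 and Oas1a lie at the right and left ends of the comparison of the treated lines, where Trim25, at 0 reads in both, has no point.

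Among the receptor genes, the chain for interferon gamma was lower in both treated lines and the chains for type I interferon moved in different ways. Ifngr1, the ligand-binding chain of the gamma receptor (chromosome 10, 19591949 to 19610229), had 48.1 and 51.2 CPM in PBS, 26.5 and 26.2 CPM in I80 and 21.2 and 18.5 CPM in DI150. No libraries of different groups overlapped. Ifngr1 fell 2.50-fold in DI150 (-1.30 ± 0.10 SE on the log2 scale, limma adjusted p = 1.54e-05) and 1.89-fold in I80 (-0.90 ± 0.10, limma adjusted p = 0.000119). It was 1.33-fold lower in DI150 than in I80 (limma adjusted p = 0.0138), and this call was lost without I80 replicate 1 (0.0896), I80 replicate 2 (0.0840) or DI150 replicate 3 (0.0855). Ifngr2, its partner chain and not one of the 35, averaged 34.5, 30.1 and 35.4 CPM in PBS, I80 and DI150 and was not called in any comparison (limma adjusted p = 0.142 to 0.767), with 0.0397 in I80 against PBS without PBS replicate 1.

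Ifnar1 and Ifnar2, which lie in a cluster of receptor genes on chromosome 16 (91485032 to 91510523 and 91372783 to 91405589), did not move together. Ifnar1 had 62.5 and 62.2 CPM in PBS, 63.0 and 61.2 CPM in I80 and 47.2 and 46.5 CPM in DI150. PBS and I80 overlapped and DI150 stood below both. Ifnar1 was 1.33-fold lower in DI150 than in PBS (-0.41 ± 0.07 SE on the log2 scale, limma adjusted p = 0.00118) and lower than in I80 by 0.40 on the log2 scale (limma adjusted p = 0.00307), while the interval of its log2 difference between I80 and PBS ran from -0.17 to 0.16. Ifnar2 had 12.97 and 12.41 CPM in PBS, 22.6 and 18.0 CPM in I80 and 17.8 and 16.7 CPM in DI150. It was higher in both treated lines, by 1.60-fold in I80 (limma adjusted p = 0.00304) and 1.36-fold in DI150 (limma adjusted p = 0.0203). The DI150 call was lost without PBS replicate 1 (limma adjusted p = 0.0610), PBS replicate 2 (0.0862), DI150 replicate 1 (0.107) or DI150 replicate 3 (0.0580). Per kilobase of exon, levels in PBS were 17.4 CPM for Ifngr1, 10.5 CPM for Ifnar1 and 3.81 CPM for Ifnar2, and in DI150 they were 6.97, 7.89 and 5.18 CPM.

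Of the transcription factors, Irf1 was the one with a large difference. IRF1 is an activator that interferon gamma induces and that keeps many antiviral genes at their basal level. Irf1 (chromosome 11, 53770014 to 53778374) had 90.6 and 96.8 CPM in PBS, 52.2 and 49.8 CPM in I80 and 41.0 and 37.2 CPM in DI150. The groups did not overlap, and the order was PBS above I80 above DI150. Irf1 fell 2.40-fold in DI150 (-1.25 ± 0.08 SE on the log2 scale, limma adjusted p = 7.42e-06) and 1.84-fold in I80 (-0.87 ± 0.08, limma adjusted p = 5.43e-05). The difference between the treated lines was -0.38 on the log2 scale (limma adjusted p = 0.00834), and it was not called without I80 replicate 1 (0.0794) or DI150 replicate 3 (0.0592).

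Irf2, which competes with IRF1 for the same sites, had 43.4 and 48.7 CPM in PBS, 37.5 and 34.7 CPM in I80 and 43.0 and 42.9 CPM in DI150. It was lower in I80 than in PBS by 0.35 on the log2 scale (limma adjusted p = 0.00988), and this call was lost without I80 replicate 2 (0.0873), and was not called in DI150 against PBS (0.354) or against I80 (0.0556, and 0.0293 and 0.0296 without PBS replicate 1 or 2). Irf3, the factor that the RNA and DNA sensing pathways phosphorylate, had 46.5 and 49.4 CPM in PBS, 56.7 and 57.0 CPM in I80 and 60.8 and 56.2 CPM in DI150. Both treated lines were above PBS by small amounts, 0.28 in DI150 (limma adjusted p = 0.0122) and 0.24 in I80 (limma adjusted p = 0.0242) on the log2 scale. The DI150 call was lost without DI150 replicate 1 (limma adjusted p = 0.0836), and the I80 call without PBS replicate 1 (0.0623), I80 replicate 1 (0.113) or I80 replicate 2 (0.121). Irf7, the factor that amplifies the type I interferon response, was near the filter, at 0.338 and 1.66 CPM in PBS, 1.60 and 1.44 CPM in I80 and 1.24 and 1.41 CPM in DI150. PBS replicate 1 alone was low and the groups overlapped. Irf7 was not called (limma adjusted p = 0.347 in DI150 and 0.219 in I80 against PBS), but it was called higher in both lines without PBS replicate 2 (0.00131 and 0.000954) and higher in I80 under quantile normalization (0.0306).

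Of the factors of the complex that binds the ISRE, Stat2 was higher in DI150 and Irf9 was not called. Stat2 had 8.27 and 11.1 CPM in PBS, 10.8 and 10.7 CPM in I80 and 12.5 and 15.6 CPM in DI150. It was 1.46-fold higher in DI150 than in PBS (limma adjusted p = 0.0248), a call lost with no filter (0.0503) and without PBS replicate 1 (0.133) or DI150 replicate 3 (0.164), and not called in I80 (0.433). Irf9 stayed between 6.47 and 8.57 CPM in the 6 libraries (limma adjusted p = 0.441 to 0.919). Stat3, the factor of interleukin-6 type cytokines, had 153 and 187 CPM in PBS, 180 and 172 CPM in I80 and 197 and 188 CPM in DI150, and was not called (limma adjusted p = 0.126 to 0.640), although it passed without PBS replicate 2 in both treated lines (0.00731 in DI150 and 0.0368 in I80).

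**Figure D2:**
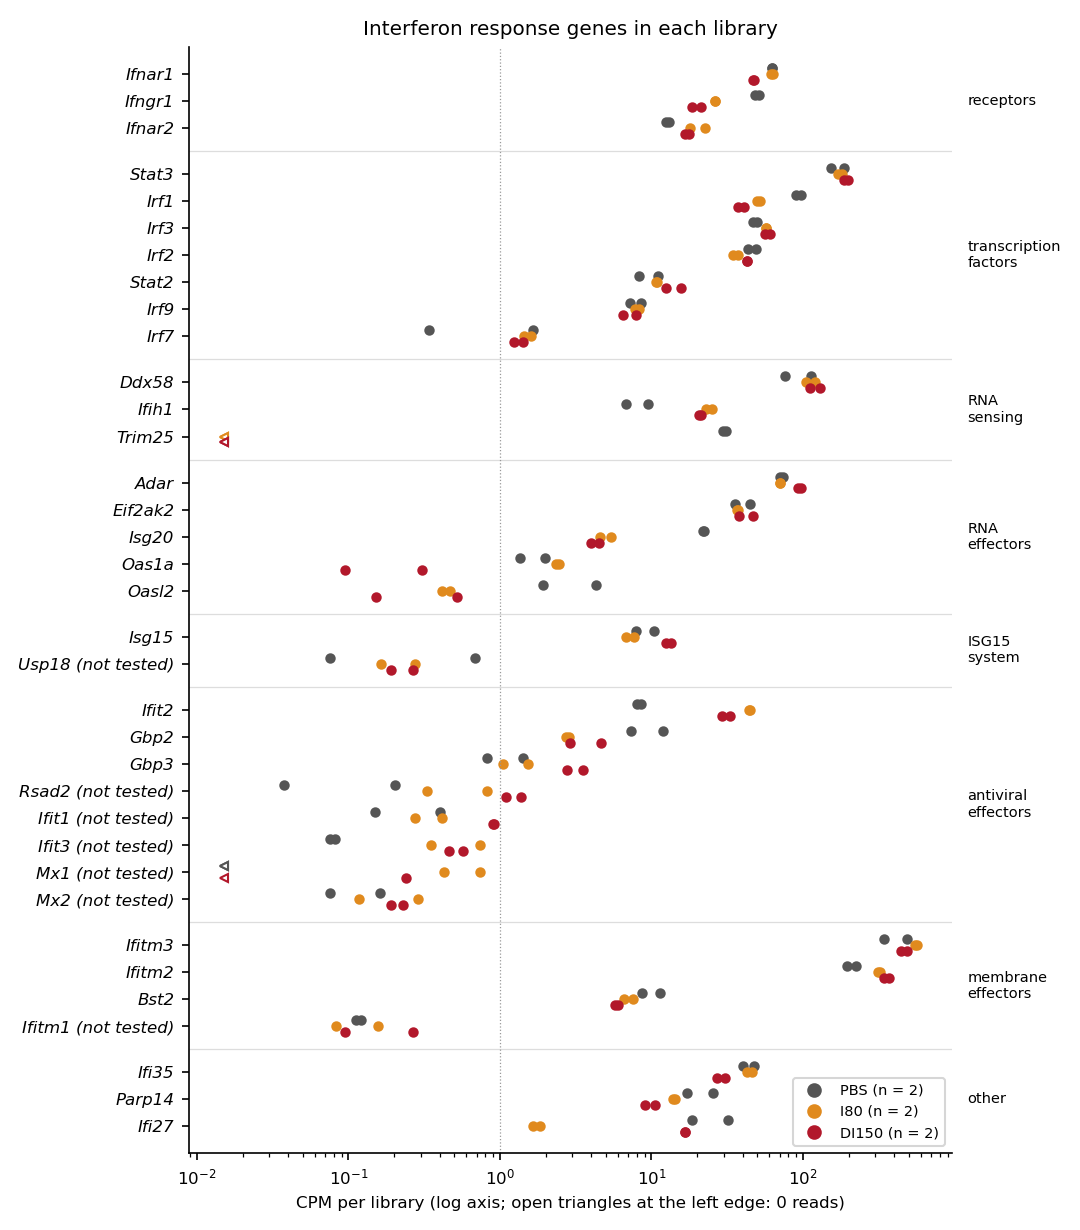
CPM of the 35 genes in each of the 6 libraries on a log axis, grouped by role, with 0 reads drawn as open triangles at the left edge and the dotted line at 1 CPM. Trim25 is at 0 reads in all I80 and DI150 libraries and near 30 CPM in PBS, Ifi27 is low in I80 alone and Oas1a in DI150 alone, and the genes marked as not tested lie mostly to the left of the line.

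The most extreme difference among the 35 genes was that of Trim25, which encodes a ubiquitin ligase that assists RNA sensing by RIG-I. Trim25 (gene 217069, chromosome 11, 88999403 to 89020294) had 29.5 and 30.9 CPM in PBS, from 786 and 763 reads, and no read in any I80 or DI150 library. Set against the floor of 3 reads per library, Trim25 was at least 234.8-fold lower in DI150 (limma adjusted p = 9.70e-08) and at least 250.9-fold lower in I80 (limma adjusted p = 1.25e-07). Neighbouring genes, chosen after their values were seen, were still read in the treated lines. Coil, the gene before it, averaged 28.6, 29.3 and 30.0 CPM in PBS, I80 and DI150 (limma adjusted p = 0.549 in DI150 and 0.762 in I80 against PBS). Dgke, the gene after it, averaged 29.5, 22.2 and 22.4 CPM and was lower by 0.40 on the log2 scale in each treated line (limma adjusted p = 0.0276 in DI150 and 0.0273 in I80). Farther off, Scpep1 averaged 137.9, 163.5 and 148.5 CPM and was called higher in I80 (limma adjusted p = 0.0173) but not in DI150 (0.217). Akap1 averaged 146.8, 80.8 and 103.6 CPM and was called lower in both treated lines. Its log2 fold change against PBS was -0.84 in I80 (limma adjusted p = 0.000518) and -0.49 in DI150 (0.00810). The table gives 1 value per gene, so where along Trim25 the PBS reads lay is not shown.

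**Figure D3:**
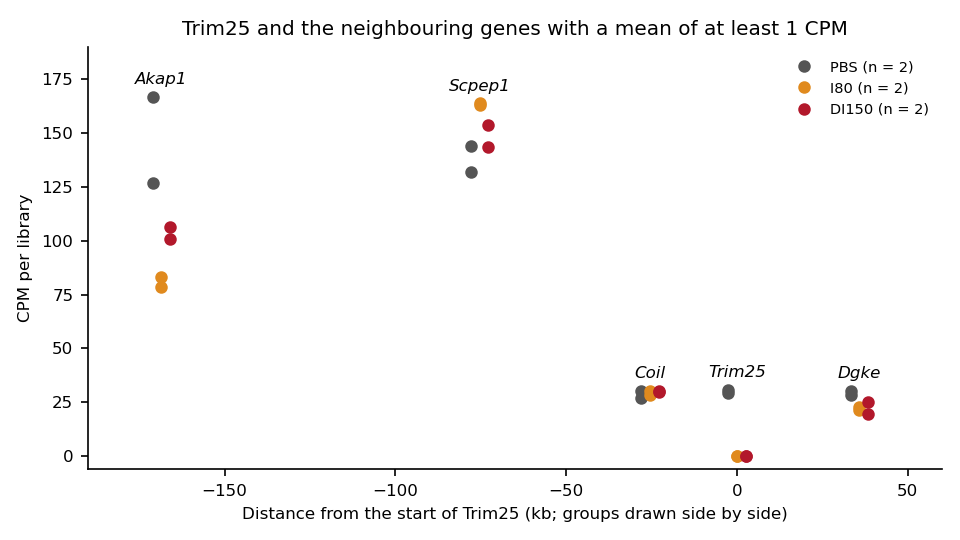
CPM per library of Trim25 and the 4 nearest genes that passed the filter against distance from the start of Trim25 in kilobases, with the 3 groups drawn side by side at each gene. The I80 and DI150 points of Trim25 lie at 0 while Coil and Dgke on either side lie between 19.5 and 30.4 CPM in every library.

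The RNA sensor genes of the set, Ifih1 and Ddx58, were not called lower as Trim25 was. Ifih1 encodes MDA5, which binds long double-stranded RNA. Ifih1 (chromosome 2, 62595618 to 62646255) had 6.80 and 9.46 CPM in PBS, 25.1 and 23.0 CPM in I80 and 20.5 and 21.2 CPM in DI150. Both treated lines stood above both PBS libraries, by 2.56-fold in DI150 (1.32 ± 0.15 SE on the log2 scale, limma adjusted p = 0.000164) and 2.96-fold in I80 (1.52 ± 0.15, limma adjusted p = 8.23e-05). The treated lines did not pass the test against each other (limma adjusted p = 0.327). Ddx58 encodes RIG-I, the sensor of RNA ends. It had 76.6 and 113 CPM in PBS, 120 and 104 CPM in I80 and 129 and 111 CPM in DI150. PBS replicate 2 lay among the treated libraries, and Ddx58 was not called (limma adjusted p = 0.0947 in DI150 and 0.205 in I80), while without PBS replicate 2 it was called higher in both (0.0107 and 0.0187).

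Of the 5 tested genes filed as effectors on RNA, 1 was called higher and 3 lower in DI150 against PBS, and 2 were lower in I80 against PBS, beside the 68.7% and 66.4% of all tested genes called. Isg20, an exonuclease that degrades viral RNA, had 21.9 and 22.3 CPM in PBS, 4.57 and 5.44 CPM in I80 and 4.52 and 3.97 CPM in DI150. It fell 5.20-fold in DI150 (-2.25 ± 0.14 SE on the log2 scale, limma adjusted p = 5.26e-06) and 4.41-fold in I80 (-2.04 ± 0.14, limma adjusted p = 9.50e-06), with no overlap between treated and PBS libraries. Oasl2, a member of the oligoadenylate synthetase family, had 1.92 and 4.29 CPM in PBS, 0.468 and 0.412 CPM in I80 and 0.523 and 0.153 CPM in DI150. Its PBS libraries differed from each other by more than a factor of 2 and both were above the treated ones, and Oasl2 was 9.18-fold lower in DI150 (limma adjusted p = 0.00126) and 7.05-fold lower in I80 (limma adjusted p = 0.00221). The DI150 fold was 20.3 without DI150 replicate 1, 5.93 without DI150 replicate 3 and 5.67 without PBS replicate 2, and the I80 fold was 4.35 without PBS replicate 2.

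Oas1a, an oligoadenylate synthetase that activates RNase L, separated the treated lines. It had 1.35 and 1.98 CPM in PBS, 2.46 and 2.35 CPM in I80 and 0.095 and 0.305 CPM in DI150. Oas1a was 8.33-fold lower in DI150 than in PBS (-1.63 ± 0.23 SE on the log2 scale, limma adjusted p = 0.00046) and 12.0-fold lower than in I80 (-2.07 ± 0.23, limma adjusted p = 0.000483). The DI150 values rest on 2 and 8 reads. Without DI150 replicate 1 the folds were 5.46 against PBS and 7.87 against I80. Without DI150 replicate 3 they were 17.5 against PBS and 25.3 against I80, with exact 95% intervals of the read ratio of 4.67 to 146 and 6.85 to 211. Against PBS it was not called in I80 (limma adjusted p = 0.128), but was called higher there under quantile normalization (0.00619) and without PBS replicate 2 (0.0411). The Oas, Gbp, Ifit and Ifitm genes, and Ifi204 below, belong to families of similar sequence, so their counts are uncertain where reads match more than 1 copy. Adar edits double-stranded RNA and had 74.0 and 70.6 CPM in PBS, 70.8 and 70.2 CPM in I80 and 96.5 and 92.2 CPM in DI150. It was 1.30-fold higher in DI150 than in PBS (0.38 ± 0.07 SE on the log2 scale, limma adjusted p = 0.00153) and higher than in I80 (0.42 ± 0.07, limma adjusted p = 0.00249), while the interval of its log2 difference between I80 and PBS was -0.19 to 0.12. Eif2ak2 encodes PKR, a kinase that halts translation on double-stranded RNA. It stayed between 35.8 and 46.9 CPM and was not called (limma adjusted p = 0.314 to 0.637), and it overlaps the transcribed pseudogene Gm6548, at 196 to 297 CPM, and whether counting used strand is not stated, so reads of the pair cannot be told apart.

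Isg15 and the guanylate-binding protein genes carry ISRE matches, as printed above, and differed in direction. Isg15 (chromosome 4, 156199424 to 156200818) had 7.93 and 10.4 CPM in PBS, 6.79 and 7.71 CPM in I80 and 13.5 and 12.4 CPM in DI150. DI150 was highest and I80 lowest. Isg15 was 1.41-fold higher in DI150 than in PBS (limma adjusted p = 0.0246) and 1.79-fold higher than in I80 (0.80 ± 0.16 SE on the log2 scale, limma adjusted p = 0.00556), and was not called in I80 against PBS (0.114, and 0.0249 as a lower call without PBS replicate 1). The call against PBS was lost with no filter (limma adjusted p = 0.0509) and without PBS replicate 1 (0.0986), DI150 replicate 1 (0.126) or DI150 replicate 3 (0.0665), and the call against I80 without I80 replicate 1 (0.0537). Gbp2 and Gbp3 encode GTPases that act on membranes of pathogens and are induced by interferon gamma. Gbp2 (chromosome 3, 142620663 to 142638008) had 7.37 and 11.9 CPM in PBS, 2.73 and 2.84 CPM in I80 and 4.66 and 2.90 CPM in DI150. It was 2.55-fold lower in DI150 (-1.24 ± 0.27 SE on the log2 scale, limma adjusted p = 0.00396) and 3.46-fold lower in I80 (-1.59 ± 0.27, limma adjusted p = 0.00113). Gbp3, close by at 142560016 to 142573213, went the other way in DI150, with 0.827 and 1.42 CPM in PBS, 1.05 and 1.53 CPM in I80 and 2.76 and 3.51 CPM in DI150. Gbp3 was 2.80-fold higher in DI150 than in PBS (limma adjusted p = 0.00331) and 2.43-fold higher than in I80 (limma adjusted p = 0.0123), the second of these lost without I80 replicate 1 (0.0984) or DI150 replicate 3 (0.0903). In I80 against PBS, Gbp3 was not called (limma adjusted p = 0.596), except under quantile normalization (0.0333).

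Ifit2 was the gene with the largest called rise against PBS among the 28. IFIT proteins bind viral RNA and restrain its translation. Ifit2 (chromosome 19, 34550550 to 34576534) had 8.53 and 8.01 CPM in PBS, 44.8 and 43.8 CPM in I80 and 29.4 and 32.9 CPM in DI150. No libraries of different groups overlapped, and I80 was highest. It rose 3.77-fold in DI150 (1.85 ± 0.10 SE on the log2 scale, limma adjusted p = 2.69e-06) and 5.36-fold in I80 (2.35 ± 0.10, limma adjusted p = 8.37e-07). DI150 was lower than I80 by 0.50 on the log2 scale (limma adjusted p = 0.00586), and this call was lost without I80 replicate 1 (0.0610), I80 replicate 2 (0.0515) or DI150 replicate 1 (0.0517). In the same cluster, Ifit3 and Ifit1 were below the filter.

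**Figure D4:**
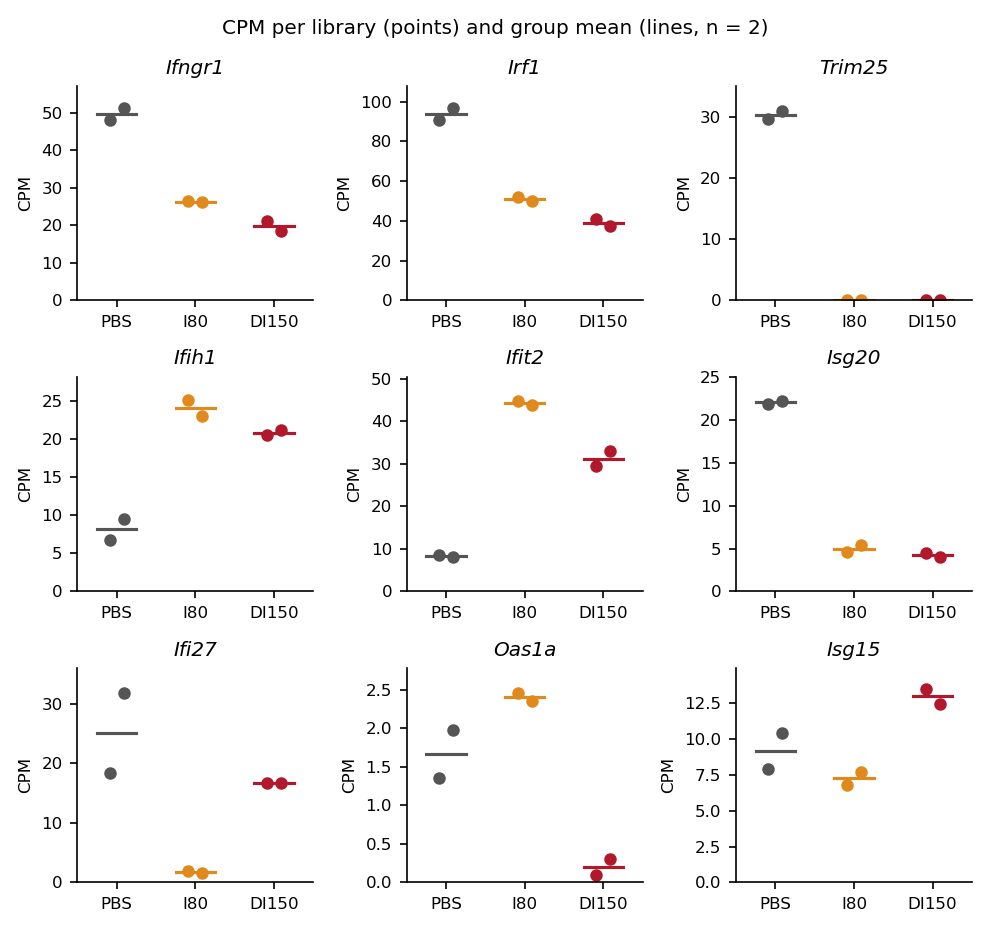
CPM of 9 genes in each library (points) with the group mean (lines, n = 2) for PBS, I80 and DI150, each panel on its own linear axis from 0. Ifngr1, Irf1, Isg20 and Trim25 stand highest in PBS and Ifih1 and Ifit2 lowest there, Ifi27 stands apart in I80 at 1.83 and 1.65 CPM, and Oas1a and Isg15 differ between DI150 and I80.

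The membrane proteins IFITM2 and IFITM3 block the entry of enveloped viruses, and their genes had the highest levels of the set per length of exon. Ifitm3 stood at 610 CPM per kilobase in PBS, 825 in I80 and 689 in DI150, and Ifitm2 at 321, 484 and 545. Ifitm2 (chromosome 7, 140954837 to 140959686) had 195 and 225 CPM in PBS, 322 and 312 CPM in I80 and 370 and 344 CPM in DI150. It rose 1.70-fold in DI150 (0.77 ± 0.08 SE on the log2 scale, limma adjusted p = 0.000121) and 1.51-fold in I80 (0.60 ± 0.08, limma adjusted p = 0.000487), and both treated lines were above both PBS libraries. Ifitm3 had 344 and 484 CPM in PBS, 550 and 569 CPM in I80 and 488 and 446 CPM in DI150. It was 1.35-fold higher in I80 than in PBS (limma adjusted p = 0.0243), a call lost with no filter (0.0519) and without PBS replicate 1 (0.0594), I80 replicate 1 (0.0814) or I80 replicate 2 (0.108). In DI150 against PBS it was not called (limma adjusted p = 0.263, and 0.00566 without PBS replicate 2), nor in DI150 against I80 (0.181, and 0.0227 and 0.0221 without PBS replicate 1 or 2). Bst2 encodes tetherin, which holds budding virus at the cell surface. It had 8.68 and 11.4 CPM in PBS, 7.57 and 6.55 CPM in I80 and 6.04 and 5.76 CPM in DI150, all treated libraries below PBS. Bst2 was 1.71-fold lower in DI150 (limma adjusted p = 0.00541) and 1.43-fold lower in I80 (limma adjusted p = 0.0328). The I80 call was lost with no filter (limma adjusted p = 0.0690), under quantile normalization (0.114), with DESeq2 (0.0518), on the 4 libraries compared (0.0571), and without PBS replicate 2 (0.118), I80 replicate 1 (0.0652), I80 replicate 2 (0.185), DI150 replicate 1 (0.0579) or DI150 replicate 3 (0.0576).

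On the log2(CPM + 0.5) scale, Ifi27 showed the largest difference between the treated lines among the 28, while by ratio of mean CPM that of Oas1a was larger. The product of Ifi27 is a small mitochondrial and nuclear membrane protein induced by type I interferon. Ifi27 overlaps the gene Ifi27l2a, which had 0 to 0.156 CPM, and how reads shared by the pair were counted is not stated. Ifi27 (chromosome 12, 103434189 to 103440245) had 18.4 and 31.8 CPM in PBS, 1.83 and 1.65 CPM in I80 and 16.7 and 16.7 CPM in DI150. It was 14.4-fold lower in I80 than in PBS (-3.46 ± 0.23 SE on the log2 scale, limma adjusted p = 8.77e-06) and 9.58-fold higher in DI150 than in I80 (2.94 ± 0.23, limma adjusted p = 0.000115). In DI150 against PBS it was not called by limma (adjusted p = 0.0752), while edgeR (0.0367), DESeq2 (0.0351) and limma without PBS replicate 1 (0.00232) called it lower. Ifi35, which binds the NMI protein, had 39.99 and 47.80 CPM in PBS, 42.92 and 46.29 CPM in I80 and 30.55 and 27.25 CPM in DI150. Only DI150 stood apart. Ifi35 was 1.52-fold lower in DI150 than in PBS (limma adjusted p = 0.00210) and 1.54-fold lower than in I80 (limma adjusted p = 0.00390). Parp14, an ADP-ribosyltransferase, had 17.2 and 25.3 CPM in PBS, 14.0 and 14.2 CPM in I80 and 8.99 and 10.6 CPM in DI150. It was 2.17-fold lower in DI150 (limma adjusted p = 0.00130) and 1.51-fold lower in I80 (limma adjusted p = 0.0290), the I80 call being lost with no filter (0.0571) and without PBS replicate 2 (0.124), I80 replicate 1 (0.113) or I80 replicate 2 (0.100). DI150 against I80 was not called (limma adjusted p = 0.0550), but passed with edgeR (0.0441), with DESeq2 (0.0460), with TMM scaling (0.0420), under quantile normalization (0.0327), on the 4 libraries compared (0.0188), and without PBS replicate 1 (0.0172) or 2 (0.0176).

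The 7 genes below the filter are given as reads, since a few reads decide them. Rsad2, which encodes viperin, had 1 and 5 reads in PBS, 21 and 8 reads in I80, and in DI150 23 and 36 reads. Ifit3 had 2 and 2 reads in PBS, 9 and 18 reads in I80, and in DI150 12 and 12 reads. Both were lowest in PBS. In the fit with no filter over 16750 genes, Rsad2 was higher in DI150 (limma adjusted p = 0.00321) and I80 (0.0451), and Ifit3 likewise (0.0111 and 0.0105). Ifit1 had 4 and 10 reads in PBS, 7 and 10 reads in I80, and in DI150 19 and 24 reads, and was higher in DI150 than in PBS (limma adjusted p = 0.00739, no filter) and than in I80 (0.0269). Mx1 is named for a GTPase that traps viral nucleocapsids, but Mx1 and Mx2 are both listed as transcribed pseudogenes in the RefSeq annotation used. Mx1 had no read in PBS, 11 and 18 reads in I80, and in DI150 5 and 0 reads. It was at least 5.00-fold higher in I80 than in PBS (limma adjusted p = 0.00580, no filter) and lower in DI150 than in I80 (0.0332). Usp18, the protease that removes ISG15, had 2 and 17 reads in PBS, 7 and 4 reads in I80, and in DI150 4 and 7 reads, so the PBS replicates lay on either side of the treated libraries. Mx2 had 2 to 7 reads and Ifitm1 2 to 7 reads in every library, and none of these 3 was called in that fit (lowest limma adjusted p = 0.280).

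Other genes of the pathway, 80 of a list of 81 that were found in the table, put these values beside the ligands, kinases and sensors. No read of the interferon genes Ifnb1, Ifng, Ifnk, Ifnl2, Ifnl3 or Ifna4 was seen in any library, and Ifne had 1 read in 2 libraries. With 1 read worth at most 0.0476 CPM, 0 reads allow a level of up to 0.143 CPM in a library at the floor of 3 reads. That floor does not cover the 2 libraries with a read of Ifne, where the level may be higher. Of the 48 tested genes of the list, 21 were higher and 16 lower in DI150 against PBS (77.1% called), 15 higher and 15 lower in I80 against PBS (62.5%), and 15 higher and 8 lower in DI150 against I80 (47.9%), beside the 68.7%, 66.4% and 43.8% of all tested genes. Jak1, the kinase that both receptors use, had 184 and 182 CPM in PBS, 281 and 275 CPM in I80 and 173 and 180 CPM in DI150. It was 1.52-fold higher in I80 than in PBS (limma adjusted p = 7.93e-05) and lower in DI150 than in I80 by 0.65 on the log2 scale (limma adjusted p = 0.000229), and was not called in DI150 against PBS (0.456). Tyk2, the kinase of IFNAR1, averaged 56.3, 61.8 and 53.2 CPM in PBS, I80 and DI150 and was not called (limma adjusted p = 0.171 to 0.602), although it passed in I80 without PBS replicate 2 (0.0248) and in DI150 against I80 on the 4 libraries compared (0.0493) and without PBS replicate 1 (0.0497).

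Socs3, an inhibitor of cytokine receptors that STAT3 induces, had 14.5 and 18.0 CPM in PBS, 82.5 and 79.7 CPM in I80 and 156 and 118 CPM in DI150. It rose 8.42-fold in DI150 (limma adjusted p = 1.49e-06) and 5.00-fold in I80 (limma adjusted p = 7.23e-06), and was higher in DI150 than in I80 by 0.73 on the log2 scale (limma adjusted p = 0.00599). Ifi204, which encodes a DNA-binding protein of the AIM2-like family, had 14.6 and 18.6 CPM in PBS, 1 read in the I80 libraries together and none in DI150. It was at least 129.2-fold lower in DI150, and the ratio of reads in PBS to I80 was 825.1 with an exact 95% interval of 147.7 to 32630 that covers counting error alone. Cgas, the DNA sensor that makes cyclic GMP-AMP, was chosen after its values were seen. It had 12.5 and 9.26 CPM in PBS, 0.390 and 0.577 CPM in I80 and 0.190 and 0.343 CPM in DI150, and was 40.7-fold lower in DI150 (limma adjusted p = 3.31e-06) and 22.5-fold lower in I80 (limma adjusted p = 6.17e-06). Sting1, the receptor of that messenger, had 20.0 and 25.2 CPM in PBS, 1.41 and 0.948 CPM in I80 and 14.5 and 14.9 CPM in DI150. Sting1 was low in I80 above all, 19.2-fold lower than in PBS (limma adjusted p = 1.34e-06) and 12.5-fold higher in DI150 than in I80 (limma adjusted p = 2.57e-05). In DI150 it was 1.54-fold lower than in PBS (limma adjusted p = 0.0178), a call lost without PBS replicate 2 (0.104), DI150 replicate 1 (0.0878) or DI150 replicate 3 (0.0710).

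Ikbke, a kinase of IRF3, had 36.7 and 48.0 CPM in PBS, 5.70 and 6.22 CPM in I80 and 12.2 and 12.8 CPM in DI150. It was 3.39-fold lower in DI150 (limma adjusted p = 2.87e-05) and 7.11-fold lower in I80 (limma adjusted p = 2.65e-06). Ticam1, which encodes TRIF, the adaptor of the RNA receptor TLR3, moved the other way, with 7.10 and 9.38 CPM in PBS, 15.5 and 16.5 CPM in I80 and 32.9 and 30.9 CPM in DI150. Ticam1 rose 3.87-fold in DI150 (limma adjusted p = 1.43e-05) and was also higher in I80 (log2 fold change 0.93, limma adjusted p = 0.000698). Helz2, an interferon-induced helicase that coactivates nuclear receptors, had 38.1 and 40.7 CPM in PBS, 7.61 and 6.02 CPM in I80 and 17.8 and 19.9 CPM in DI150, 2.09-fold lower in DI150 (limma adjusted p = 0.000269) and 5.79-fold lower in I80 (limma adjusted p = 3.03e-06). Tor3a, an interferon-induced ATPase of the torsin family, had 51.4 and 65.1 CPM in PBS, 18.5 and 18.8 CPM in I80 and 13.5 and 10.8 CPM in DI150, 4.79-fold lower in DI150 (limma adjusted p = 7.79e-06) and lower in I80 by 1.61 on the log2 scale (limma adjusted p = 4.53e-05).

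The PBS replicates differed in a common direction over these genes. PBS replicate 2 was above PBS replicate 1 for 23 of the 28 genes (82.1%), with a median log2 ratio of 0.30, beside 56.9% of all tested genes and a median of 0.04. The other pathway genes did likewise, 40 of 48 (83.3%) with a median of 0.32. In the treated lines the replicates lay closer, with I80 replicate 2 above replicate 1 for 9 of 28 genes (median -0.04) and DI150 replicate 3 above replicate 1 for 9 of 28 (median -0.06), beside 51.7% and 56.6% of all tested genes. The macrophage gene Csf1r also differed between the PBS replicates in that direction, 14.5 CPM in replicate 2 and 7.67 CPM in replicate 1. The other leukocyte markers did not all do so. Cd68 had 2.43 CPM in replicate 2 and 1.84 CPM in replicate 1, and Ptprc 0.243 and 0.263 CPM. Adgre1, Itgam, Lyz2 and Cd3e had no read in PBS, and Cd79a had 1 read in each PBS library. The part of this replicate difference or of Csf1r in the comparisons with PBS was not tested beyond leaving out each library, as given beside each gene.

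**Figure D5:**
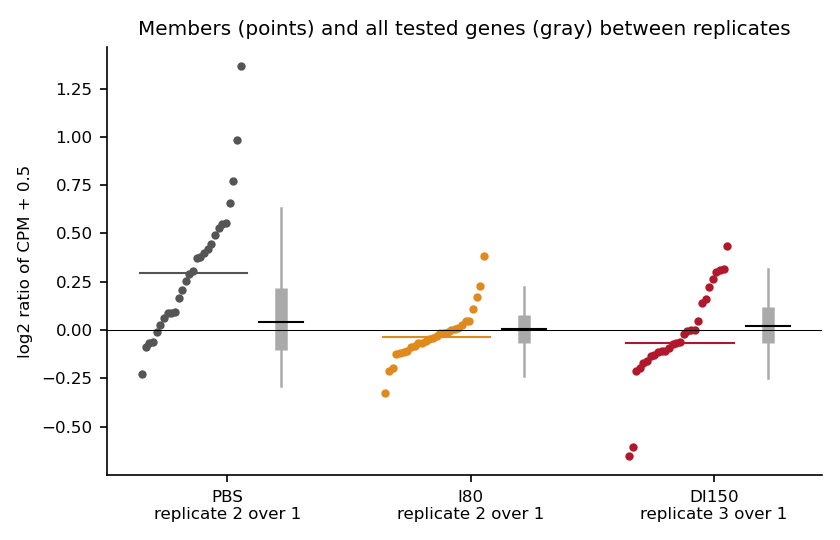
Log2 ratio of (CPM + 0.5) between the replicate libraries of PBS, I80 and DI150 for the 28 tested genes (points, sorted, with their median as a line) and over all tested genes (gray box from the 25th to the 75th percentile, whisker from the 5th to the 95th, median as a line). The PBS points lie mostly above 0, with a median of 0.30 against 0.04 for all genes, and the I80 and DI150 points lie around 0.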

How the data were processed

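Ribosomal RNA was depleted from total RNA and single 81-base reads were sequenced, per the labels' protocols. STAR and the mm10 build are named in the submitters' processing notes, while the sources used here name no counter, annotation or strand setting. CPM in 1 table were deposited by the authors, each column summing to 1000000. Columns were grouped by treatment, and the DI150 column numbered 3, where the labels number 1 and 2, is called DI150 replicate 3. Symbols came from RefSeq GRCm38.p6 (24374 of 24454 gene numbers, 99.67%). Rnf213, on the list of other pathway genes, was not matched and is not analysed here.

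The main test was limma 3.58.1 in R 4.3.3 (lmFit, then eBayes with its trend option), run on log2(CPM + 0.5) of the 11428 genes that averaged 1 CPM or more, all 6 libraries in 1 fit (3 residual degrees of freedom, prior 4.52), two-sided with Benjamini-Hochberg adjustment over all genes. Log2 fold changes on this scale understate changes of low genes, so folds are ratios of mean CPM. Whole reads were recovered for 100.0% of 146724 values (within 1e-06 reads) and served edgeR 4.0.16 and DESeq2 1.42.0 as alternatives. The floor for 0 reads is 3 reads per library (0.113 to 0.143 CPM), covering counting error alone. Other alternatives were pseudocounts of 0.1 and 1, no filter, a mean of at least 5 CPM, TMM scaling, quantile normalization, the 4 libraries compared, a replicate block with DI150 replicate 3 either in a block of its own or as the second sample, and leaving out each library. The p-values rest on the spread between these libraries, which may be technical.

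The 35 genes and the other lists were chosen with earlier results of these data known. Beside the 35, genes named are, for each comparison with PBS, the 4 other pathway genes with the largest log2 fold change among those called with a mean of at least 5 CPM and no overlap, plus the signalling genes Jak1, Tyk2 and Ifngr2; 1 further signalling gene is not reported here. Cgas and the neighbours of Trim25 lie outside this rule and were chosen after their values were seen. Levels per kilobase use union exon lengths of GENCODE M21.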

Additional observations from a re-analysis of the deposited data

Results flagged for a closer look

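Expression differed between the lines DI150 and I80 for 10 of the 28 tested genes, by the limma test of DI150 against I80 (adjusted p under 0.05). That is 35.7%, beside 43.8% of all tested genes. It also differed for 7 of the 10 other pathway genes named by the rule, most of which were named for their large folds against PBS. On the log2 scale the difference of DI150 from I80 was 2.94 for Ifi27, 1.03 for Gbp3, 0.80 for Isg15 and 0.42 for Adar, which were higher in DI150. It was -2.07 for Oas1a, -0.62 for Ifi35, -0.50 for Ifit2, -0.40 for Ifnar1, -0.40 for Ifngr1 and -0.38 for Irf1, which were lower in DI150. Of the other pathway genes it was 3.19 for Sting1, 1.41 for Helz2, 1.01 for Ikbke, 0.97 for Ticam1 and 0.73 for Socs3, and -0.65 for Jak1 and -0.60 for Tor3a. The library that a call rests on is given beside each gene above. For Tor3a the call was lost without I80 replicate 1 (limma adjusted p = 0.0719), I80 replicate 2 (0.0805) or DI150 replicate 3 (0.0884).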

How the results depend on the processing

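Of the 28 tested genes, the calls of 11 of 16 in I80 against PBS, 15 of 20 in DI150 against PBS and 3 of 10 in DI150 against I80 were kept in every alternative that gave a value. Leaving out a library leaves a lone sample that is assumed to vary like the other groups, and the fit with a mean of at least 5 CPM gives no value for Irf7, Oas1a, Oasl2 or Gbp3. The cause of the shifts below was not tested.

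Counts that moved by over 1.5 times were these. Leaving out 1 library gave 4 to 10 of the 28 genes higher in I80 against PBS, and 2 to 5 higher and 3 to 8 lower in DI150 against I80. For the other pathway genes lower in DI150 against I80 it gave 2 to 11, and no filter gave 5. Over all tested genes in DI150 against I80 it gave 1295 to 3008 higher and 1187 to 2965 lower. Deviations of the replicate 1 libraries from their group means correlated at 0.0228 (I80 and PBS), -0.0551 (DI150 and PBS) and 0.213 (DI150 and I80). With 2 libraries per group, these values do not settle whether the numbers pair the samples. A block of its own for DI150 replicate 3 fits that library exactly, so DI150 then rests on DI150 replicate 1 alone. In comparisons with DI150, calls lost under that block cannot be told apart from the effect of losing the library. With a replicate block in which DI150 replicate 3 has a block of its own, 2 of the 28 genes, 3 other pathway genes and 1327 of all genes were lower and 1361 of all genes higher in DI150 against I80. Where DI150 replicate 3 was instead blocked with the libraries numbered 2, these were 7, 9, 2448 and 2455. The block of its own ended the calls (limma adjusted p) of Irf3 (0.0569) and Bst2 (0.0583) in I80 against PBS, of Stat2 (0.0982), Bst2 (0.0625), Ifnar2 (0.114) and Sting1 (0.0787) in DI150 against PBS, and of Irf1 (0.13), Ifi35 (0.0555), Ifnar1 (0.0533), Ifngr1 (0.195) and Tor3a (0.165) in DI150 against I80. That second block ended none of the calls of the genes named and made 1, of Parp14 in DI150 against I80 (0.0292).

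The sign turned only for genes that were not called in that comparison. Quantile normalization gave log2 fold changes of 0.0251 for Ifnar1 (I80 against PBS) and 0.0973 for Irf9 (DI150 against PBS). The replicate block gave -0.00312 for Eif2ak2 and 0.0943 for Tyk2 (DI150 against PBS), and 0.0955 for Irf7, 0.348 for Oasl2 and 0.0557 for Ifi204 (DI150 against I80). Leaving out 1 library, the log2 fold change in I80 against PBS ran from -0.0428 to 0.359 for Stat2, -0.0896 to 0.198 for Stat3, -0.0955 to 1.27 for Irf7, -0.0956 to 0.133 for Irf9, -0.0997 to 0.155 for Ifi35 and -0.00987 to 0.542 for Ddx58. In the same comparison it ran from -0.111 to 0.419 for Gbp3, -0.258 to 0.0465 for Eif2ak2, -0.0258 to 0.0157 for Ifnar1 and -0.0249 to 0.314 for Tyk2. In DI150 against PBS it ran from -0.244 to 1.12 for Irf7, -0.0517 to 0.441 for Ifitm3, -0.0819 to 0.233 for Eif2ak2, -0.242 to 0.0972 for Tyk2 and -0.0947 to 0.176 for Ifngr2. In DI150 against I80 it ran from -0.0147 to 0.0957 for Irf3, -0.00784 to 0.202 for Ddx58 and -0.526 to 0.123 for Oasl2.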
